A study of Homo sapiens with 24 samples.

Results

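The response of T24 cells to mitomycin C (MMC) was set against the response of 5637 cells, gene by gene, in 12 of the 24 libraries of the series. The response of a gene is its log2 fold change, MMC over untreated, and the difference is the T24 response minus the 5637 response, so that a positive difference means a larger rise or a smaller fall in T24. T24 and 5637 are established human bladder cancer cell lines, and the 4 groups are T24 cells with MMC, untreated T24 cells, 5637 cells with MMC and untreated 5637 cells, each with 3 libraries numbered 1, 3 and 4. MMC was given at 75 µM for 1 h, and the RNA dates from 15 h after treatment. The tag MCC on the treated libraries was taken to mean MMC, the only drug in the protocol. The design text calls the libraries biological replicates, and each tumour background is a single line, so the comparison is between these 2 lines and not between classes of tumour. P-values measure the spread between libraries, estimated over all 24 libraries of the series in 8 groups, those of the lines TCC-SUP and CLS-439 included.

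MMC is a bladder cancer drug that alkylates DNA and crosslinks its strands, which blocks replication and transcription and starts checkpoint signalling. DNA damage can also activate NF-kB, a family of transcription factors that induces cytokines together with its own inhibitors. Stress on translation or on the endoplasmic reticulum (ER) acts through phosphorylation of the initiation factor eIF2alpha and translation of ATF4, a programme called the integrated stress response. As background, T24 carries an activating HRAS mutation, and 5637 lacks functional RB1 protein and is known for secreting colony-stimulating factors.

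The T24 libraries held 19550429 to 28821665 counted reads each, and the 5637 libraries 19384501 to 23810260. Levels are in CPM, a gene's reads relative to all counted reads of its library, with TMM scaling. The epithelial keratins KRT8 and KRT18 were high in both lines, at 578.7 CPM or more in every library. T24 had at most 0.108 CPM of E-cadherin (CDH1) and 0.0499 CPM of KRT5, against at least 137.8 and 429.3 CPM in 5637, and EPCAM was at most 3.26 CPM in T24 and at least 166.4 CPM in 5637. Mesenchymal genes went both ways. ZEB1 was at least 15.97 CPM in T24 and at most 0.303 CPM in 5637. VIM was at most 84.35 CPM in T24 and at least 432.9 CPM in 5637. CDH2 was 167.7 to 202.2 CPM in untreated T24 and 388.5 to 416.8 CPM in untreated 5637, and the treated groups overlapped. The endothelial gene CDH5 was at most 8.66 CPM in T24 and 0.562 CPM in 5637. The leukocyte marker PTPRC and the fibroblast gene DCN were at or near 0 in all 12 libraries. The treated replicate 1 stood apart from treated replicates 3 and 4 in both lines. The chi-square per gene between treated replicate 1 and the other 2 was 129.2 and 72.47 in T24 and 77.08 and 50.45 in 5637, against 21.38 in T24 and 22.95 in 5637 between replicates 3 and 4. Untreated T24 replicate 4 also stood apart, with a chi-square per gene of 46.87 against replicate 1 and 28.67 against replicate 3, where replicates 1 and 3 gave 10.14. Treated libraries of the same number also deviated from their group means in the same sense in the 2 lines (r across genes 0.644, 0.492 and 0.235 for numbers 1, 3 and 4). What sets these libraries apart was not tested.

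MMC changed similar numbers of genes in the 2 lines. It raised 3162 genes in T24 (15.2% of 20820 tested) and lowered 2785 (13.4%), and it raised 3305 in 5637 (15.9%) and lowered 2823 (13.6%). Across genes at 1 CPM or more in the highest of the 4 groups the 2 responses, which share no library, correlated at r = 0.644, given as a description since genes are not replicates. The difference itself passed the test for 722 genes (3.47%; edgeR quasi-likelihood test of the interaction, Benjamini-Hochberg adjusted p under 0.05 over all genes tested), of which 369 (1.77%) were higher in the T24 response and 353 (1.7%) lower. Among the 14899 genes at 1 CPM or more, MMC raised 19.1% in T24 and 19.6% in 5637, lowered 17.9% in T24 and 17.8% in 5637, and the difference was called for 4.73%, higher for 2.42% and lower for 2.3%. Of them 0.275% rose in T24 and fell in 5637 with a called difference, and 0.215% did the reverse. The difference was at least 1 on the log2 scale for 243 of the genes called higher and 235 of those called lower. For 677 of the 722 genes the range of responses over the libraries of 1 line did not overlap that of the other. The same libraries gave the calls, so this count is not separate support for them. The share over all genes tested is not given here.

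Most differences came from a response called in 1 line. Here and below, a response in 1 line alone means that it was called there and did not pass the test in the other line. Of the 369 genes higher in the T24 response, 155 were called in T24 alone and 98 in 5637 alone. In both lines, 74 were called in the same direction, and 42 rose in T24 and fell in 5637 (0.202% of genes tested). By estimated direction, called or not, 72 of the 155 rose in both lines and 31 of the 98 fell in both. Of the 353 lower, 129 were called in T24 alone, 150 in 5637 alone and 1 in neither. In both lines, 39 were called in the same direction, and 34 fell in T24 and rose in 5637 (0.163%). Of the 129, 49 fell in both lines, and of the 150, 63 rose in both. Genes higher in the T24 response were more often lower in untreated T24 than in untreated 5637 (265 of 369, or 71.8%, against 51.4% of all genes at 1 CPM or more), and for genes lower in the T24 response the share was 25.8%. The same untreated libraries enter the level and the response, so these shares are not independent of the choice of genes.

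**Figure D1:**
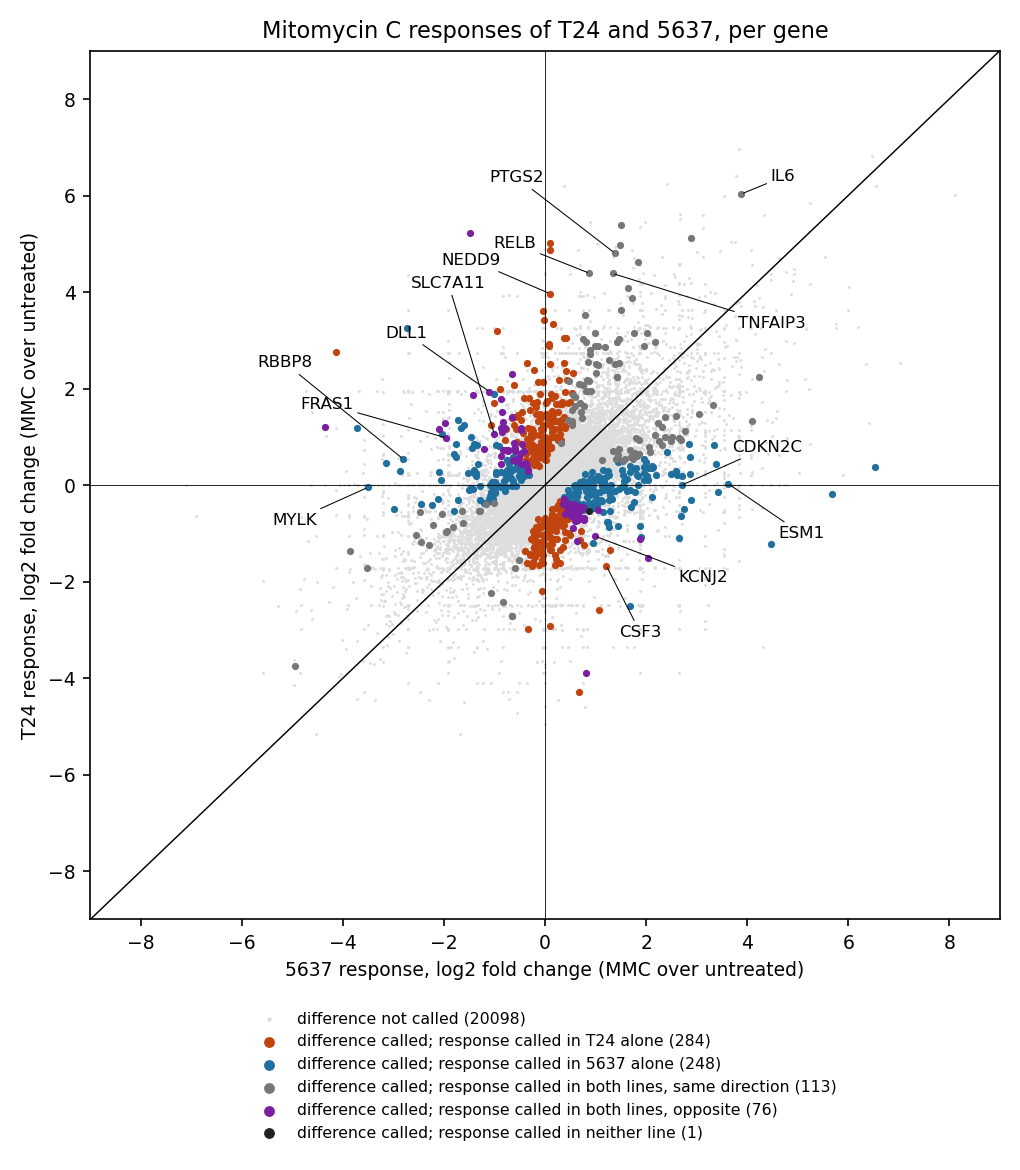
T24 response (vertical axis) against 5637 response (horizontal axis), both as log2 fold change of MMC over untreated, for the 20820 genes tested; coloured points are the 722 genes whose difference was called, by the line in which the response was called. NEDD9 and RELB lie far above the diagonal, ESM1 and CDKN2C far below it, and DLL1 and KCNJ2 in the quadrants of opposite directions.

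The counts depended on single libraries. Without treated T24 replicate 1 the difference was called higher for 579 genes and lower for 559, and without treated 5637 replicate 1 for 571 and 484. Without any 1 of the other 10 libraries the counts lay between 213 and 402 higher and between 184 and 426 lower. Of the 722 genes, 307 were called in all 12 of these fits. The genes described next kept their call without any 1 of the 12 libraries unless a sentence says otherwise.

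The libraries of the other 2 lines also bear on the counts, since they enter the estimate of the spread. With the 12 libraries of T24 and 5637 alone, 16412 genes were tested, and 185 were called higher and 170 lower. Without the libraries of CLS-439, 234 were called higher and 222 lower. In the fit of the 12 libraries the adjusted p lay between 0.0501 and 0.153 for HERPUD1, CCND3, YARS1, CARS1, HOXD8, FOXA1, PTGES, IL1B, PPP1R15A, AHNAK2, CSF3, FOSL2, OCLN, DUSP16, E2F1, RPL10A, IFIT3, TNFSF9, PMAIP1, NR4A1, RAD1, DDIT3, RAB3D, LRRN4, KLF4, RIMS1, BIRC3, PCNA, CCN2, RAD23B and CCNE2. XDH, called there, had an adjusted p of 0.0829 without CLS-439. Of the lists described next, the members called higher with the 12 libraries were 3 for the integrated stress response, 1 for the aminoacyl-tRNA synthetases and 4 for the ER chaperones, and 3 G1/S genes were called lower. A replicate number and a replicate-by-treatment term shared by both lines were added to the fit of these 12 libraries, and the counts were then 844 higher and 868 lower. With these shared replicate terms 708 of the 722 genes were called in the same direction.

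Transcripts of NF-kB subunits and of its feedback inhibitors gave the largest share of called members among the 46 gene lists. Of 16 members tested, 9 were higher in the T24 response and 0 lower, and the median difference was 1.23 against 0 over all genes tested. MMC raised all 16 in T24 (median response 1.71) and 10 in 5637 (median 0.72). The called members were RELB and NFKB2, subunits of the noncanonical arm, NFKB1, a subunit of the canonical arm, the inhibitors NFKBIA and NFKBIE, TNFAIP3 (A20) and its partner TNIP1, which end NF-kB signalling, the adaptor TRAF1 and the inhibitor of apoptosis BIRC3. Without any 1 library, 8 to 10 members were called higher. The lists were chosen with earlier results of these data known, so the rank of this list is a description.

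RELB (chromosome 19, 45001430 to 45038198, GRCh38, GENCODE 29) had 67.1, 46.6 and 65.5 CPM in treated T24 cells, against 3.22, 2.38 and 2.90 CPM in untreated T24 cells. RELB levels were 86.5, 56.5 and 64.6 CPM in treated 5637 cells, against 39.2, 36.2 and 37.8 CPM in untreated 5637 cells, for replicates 1, 3 and 4 in that order here and in the other lists of 3 values. Treated T24 and treated 5637 libraries overlapped, while untreated T24 lay far below untreated 5637. The RELB response was 4.39 (SE 0.22) in T24 and 0.87 (SE 0.19) in 5637, a difference of 3.52 (SE 0.28, adjusted p = 3.2e-08). TNFAIP3 (chromosome 6, 137867188 to 137883312) had 1061, 1376 and 1589 CPM in treated T24 cells, against 42.4, 59.5 and 90.97 CPM in untreated T24 cells. TNFAIP3 levels were 837, 656 and 892 CPM in treated 5637 cells, against 311, 292 and 339 CPM in untreated 5637 cells. Treated T24 libraries were above all treated 5637 libraries although untreated T24 libraries were the lowest of the 4 groups. The responses were 4.38 (SE 0.28) in T24 and 1.34 (SE 0.25) in 5637, a difference of 3.04 (SE 0.35, adjusted p = 1.14e-05).

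NFKBIA, the inhibitor that holds NF-kB in the cytoplasm, had 202, 202 and 183 CPM in treated T24 cells, against 58.9, 53.4 and 50.2 CPM in untreated T24 cells. NFKBIA levels were 210.0, 184 and 203 CPM in treated 5637 cells, against 198, 153 and 168 CPM in untreated 5637 cells. It rose in T24 and its 5637 response of 0.20 (SE 0.13, adjusted p = 0.278) did not pass the test, with a difference of 1.65 (SE 0.19, adjusted p = 9.69e-06). NFKB2 averaged 318 ± 44.6 CPM in treated T24 cells and 42.99 ± 3.13 CPM in untreated T24 cells, and 219 ± 57.2 CPM in treated 5637 cells and 110.1 ± 10.5 CPM in untreated 5637 cells (SD, n = 3 each). It rose in both lines, with a difference of 1.90 (SE 0.22, adjusted p = 1.11e-05). TRAF1 rose by 5.11 in T24 and 2.88 in 5637, with a difference of 2.24 (SE 0.39, adjusted p = 0.00146). TNIP1 and NFKB1 rose in T24, and neither passed the test in 5637 (responses 1.33 in T24 and -0.14 in 5637 for TNIP1, and 1.32 in T24 and 0.32 in 5637 for NFKB1), with differences of 1.47 and 1.00. NFKBIE rose in both (difference 1.29). BIRC3 was called with all libraries (difference 1.51, SE 0.39, adjusted p = 0.0311) and in 3 of the 12 fits that left out 1 library, with an adjusted p of up to 0.114.

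Promoters of the called members were searched for the consensus NF-kB site on both strands in the 250 bases before the gene start (RefSeq sequences, GRCh38.p14). Of the 7 called members with a promoter in the table, 4 held a match, against 2 of 7 other members and 11.8% of 12919 promoters of genes tested. The share was 15.9% of 296 genes higher in the T24 response and 15.4% of 266 lower. The 4 promoters are shown because these genes moved together, each 5′ to 3′ on the strand of its gene with the matches in capitals, and cut where annotated exons of the gene reach into the window.
NFKB1, chr4:102501109-102501358, plus strand: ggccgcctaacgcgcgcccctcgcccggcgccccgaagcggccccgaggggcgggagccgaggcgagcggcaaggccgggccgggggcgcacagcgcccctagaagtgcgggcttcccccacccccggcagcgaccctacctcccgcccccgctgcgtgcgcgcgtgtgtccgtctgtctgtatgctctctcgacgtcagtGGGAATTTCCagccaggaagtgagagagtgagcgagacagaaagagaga
NFKBIA, chr14:35404750-35404999, minus strand: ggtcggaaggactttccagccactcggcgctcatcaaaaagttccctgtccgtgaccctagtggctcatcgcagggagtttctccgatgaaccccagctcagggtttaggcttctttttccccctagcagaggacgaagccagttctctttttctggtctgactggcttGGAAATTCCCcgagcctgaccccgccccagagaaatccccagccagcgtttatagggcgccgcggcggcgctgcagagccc
TNFAIP3, chr6:137867009-137867217, plus strand: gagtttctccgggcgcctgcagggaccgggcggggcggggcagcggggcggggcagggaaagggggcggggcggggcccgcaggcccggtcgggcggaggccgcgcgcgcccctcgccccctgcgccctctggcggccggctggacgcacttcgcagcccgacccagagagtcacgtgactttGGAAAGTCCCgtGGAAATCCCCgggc
BIRC3, chr11:102317234-102317479, plus strand: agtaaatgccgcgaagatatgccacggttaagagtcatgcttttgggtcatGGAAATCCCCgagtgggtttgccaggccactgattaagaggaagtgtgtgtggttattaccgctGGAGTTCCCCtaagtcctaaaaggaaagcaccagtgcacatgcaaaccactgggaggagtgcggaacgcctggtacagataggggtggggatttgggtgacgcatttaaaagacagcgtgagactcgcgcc
The matches begin, counted from the RefSeq start, 49 bases before the start of NFKB1, 81 before that of NFKBIA, 67 and 55 before that of TNFAIP3, and 199 and 135 before that of BIRC3. The GENCODE start of TNFAIP3 lies upstream of both of its matches, which therefore fall inside the gene as GENCODE annotates it. A match is a run of letters and does not show binding.

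Cytokine genes divided between the lines. Interleukin 6 and its relatives (14 tested) had 2 members higher in the T24 response, IL6 and LIF, and 1 lower, IL6R. The IL1 and TNF families (12 tested) also had 2 higher, IL1A and IL1B, and 1 lower, TNFSF9, and the chemokines and colony-stimulating factors (15 tested) had CCL20 and CSF1 higher and CSF3 lower. IL6 (chromosome 7, 22725884 to 22732002), the main cytokine of the acute-phase response, had 247, 313 and 268 CPM in treated T24 cells, against 4.30, 4.34 and 3.999 CPM in untreated T24 cells. IL6 levels were 239.5, 95.7 and 142 CPM in treated 5637 cells, against 15.7, 7.49 and 9.06 CPM in untreated 5637 cells. Treated libraries of both lines lay above all untreated ones, and untreated 5637 above untreated T24. The responses were 6.03 (SE 0.39) in T24 and 3.89 (SE 0.35) in 5637, a difference of 2.15 (SE 0.46, adjusted p = 0.00887), which had an adjusted p of 0.0557 without untreated 5637 replicate 1. LIF, a cytokine of the same family, averaged 241 ± 81.1 CPM in treated T24 cells and 106 ± 17.5 CPM in untreated T24 cells, and 152 ± 61.5 CPM in treated 5637 cells and 265 ± 41.1 CPM in untreated 5637 cells (SD, n = 3 each). LIF rose in T24 by 1.19 and fell by 0.80 on the log2 scale in 5637, a difference of 1.99 (SE 0.30, adjusted p = 0.000436).

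IL6R, the IL6 receptor chain, moved the other way. It had 2.22, 1.18 and 1.995 CPM in treated T24 cells, against 1.51, 1.55 and 1.66 CPM in untreated T24 cells. IL6R levels were 14.7, 14.6 and 21.7 CPM in treated 5637 cells, against 1.73, 3.04 and 2.94 CPM in untreated 5637 cells. The T24 groups overlapped, and all treated 5637 libraries exceeded all untreated ones, for responses of 0.18 (SE 0.32) in T24 and 2.72 (SE 0.29) in 5637 and a difference of -2.54 (SE 0.42, adjusted p = 0.000942). IL1A, an alarmin, had 128, 59.2 and 68.3 CPM in treated T24 cells, against 16.8, 8.73 and 9.02 CPM in untreated T24 cells. IL1A levels were 1221, 515 and 723 CPM in treated 5637 cells, against 850.1, 785 and 684 CPM in untreated 5637 cells. It was low in untreated T24 and high in every 5637 library, where treated and untreated libraries overlapped. Its difference was 2.80 (SE 0.42, adjusted p = 0.000394). IL1B, which needs cleavage for its activity, and TNFSF9, a ligand of T-cell costimulation, had differences of 1.36 (SE 0.32, adjusted p = 0.0171) and -1.72 (SE 0.42, adjusted p = 0.0209), and were called in 8 and 7 of the 12 fits that left out 1 library.

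CCL20 is a chemokine for cells with the receptor CCR6. It averaged 3.65 ± 1.16 CPM in treated T24 cells and 0.0814 ± 0.00867 CPM in untreated T24 cells (SD, n = 3 each). CCL20 levels averaged 129.9 ± 74.5 CPM in treated 5637 cells and 45.6 ± 19.02 CPM in untreated 5637 cells (SD, n = 3 each). CCL20 had responses of 5.39 in T24 and 1.51 in 5637, and a difference of 3.88 (SE 0.81, adjusted p = 0.00811). Untreated T24 cells held only a trace of CCL20, where a small change in counts gives a large log2 change. The sizes of its T24 response and of its difference are therefore uncertain. CSF1, the macrophage growth factor, rose in T24 by 1.68 with a response of 0.23 in 5637 (difference 1.45, SE 0.24, adjusted p = 0.000874).

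CSF3, the granulocyte growth factor, had 20.7, 4.32 and 10.5 CPM in treated T24 cells, against 41.5, 33.5 and 37.5 CPM in untreated T24 cells. CSF3 levels were 2354, 565 and 856 CPM in treated 5637 cells, against 817, 407 and 404 CPM in untreated 5637 cells. It fell by 1.67 on the log2 scale in T24, while the 5637 response of 1.21 (SE 0.46, adjusted p = 0.0522) did not pass the test and rested on a wide spread, with treated replicate 1 the highest. The difference of -2.89 (SE 0.67, adjusted p = 0.0175) lost its call without untreated 5637 replicate 3 (adjusted p = 0.063), untreated 5637 replicate 4 (0.0568) or treated T24 replicate 4 (0.0545), and DESeq2 gave it an adjusted p of 0.13. CXCL8, a neutrophil chemokine, rose in both lines by 2.59 in T24 and 2.55 in 5637, and its difference of 0.04 (SE 0.48, adjusted p = 1) did not pass the test.

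Of 10 prostaglandin synthesis genes, 2 were higher in the T24 response, PTGS2 and PTGES, and 1 lower, PTGES3. PTGS2, which encodes cyclooxygenase 2 (chromosome 1, 186671791 to 186680427), had 37.03, 81.8 and 80.99 CPM in treated T24 cells, against 1.71, 2.51 and 2.90 CPM in untreated T24 cells. PTGS2 levels were 788, 539 and 779 CPM in treated 5637 cells, against 235, 288 and 288 CPM in untreated 5637 cells. All 5637 libraries were above all T24 libraries, and the rise was larger in T24, with responses of 4.81 (SE 0.33) in T24 and 1.38 (SE 0.27) in 5637 and a difference of 3.43 (SE 0.41, adjusted p = 2.03e-05). PTGES, the inducible prostaglandin E synthase, fell by 1.77 in 5637 (difference 2.61, SE 0.57, adjusted p = 0.0103), and its adjusted p was 0.0567 without treated T24 replicate 1. PTGES3, a cochaperone also called p23, fell by 1.46 in T24 (difference -1.17, SE 0.23, adjusted p = 0.00322).

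INHBA, the activin A subunit, had 128, 352 and 287 CPM in treated T24 cells, against 25.8, 24.3 and 25.9 CPM in untreated T24 cells. INHBA levels were 599, 501 and 718 CPM in treated 5637 cells, against 518, 528 and 574 CPM in untreated 5637 cells. Groups of 5637 overlapped and those of T24 did not, for a difference of 3.17 (SE 0.39, adjusted p = 3.17e-05). Of 18 TGF-beta and activin genes tested, 4 were higher in the T24 response and 0 lower: INHBA, TGFB2, BMP2 (2.16) and FST, the activin antagonist follistatin, which fell by 1.33 in 5637 (difference 1.77, SE 0.27, adjusted p = 0.000465).

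**Figure D2:**
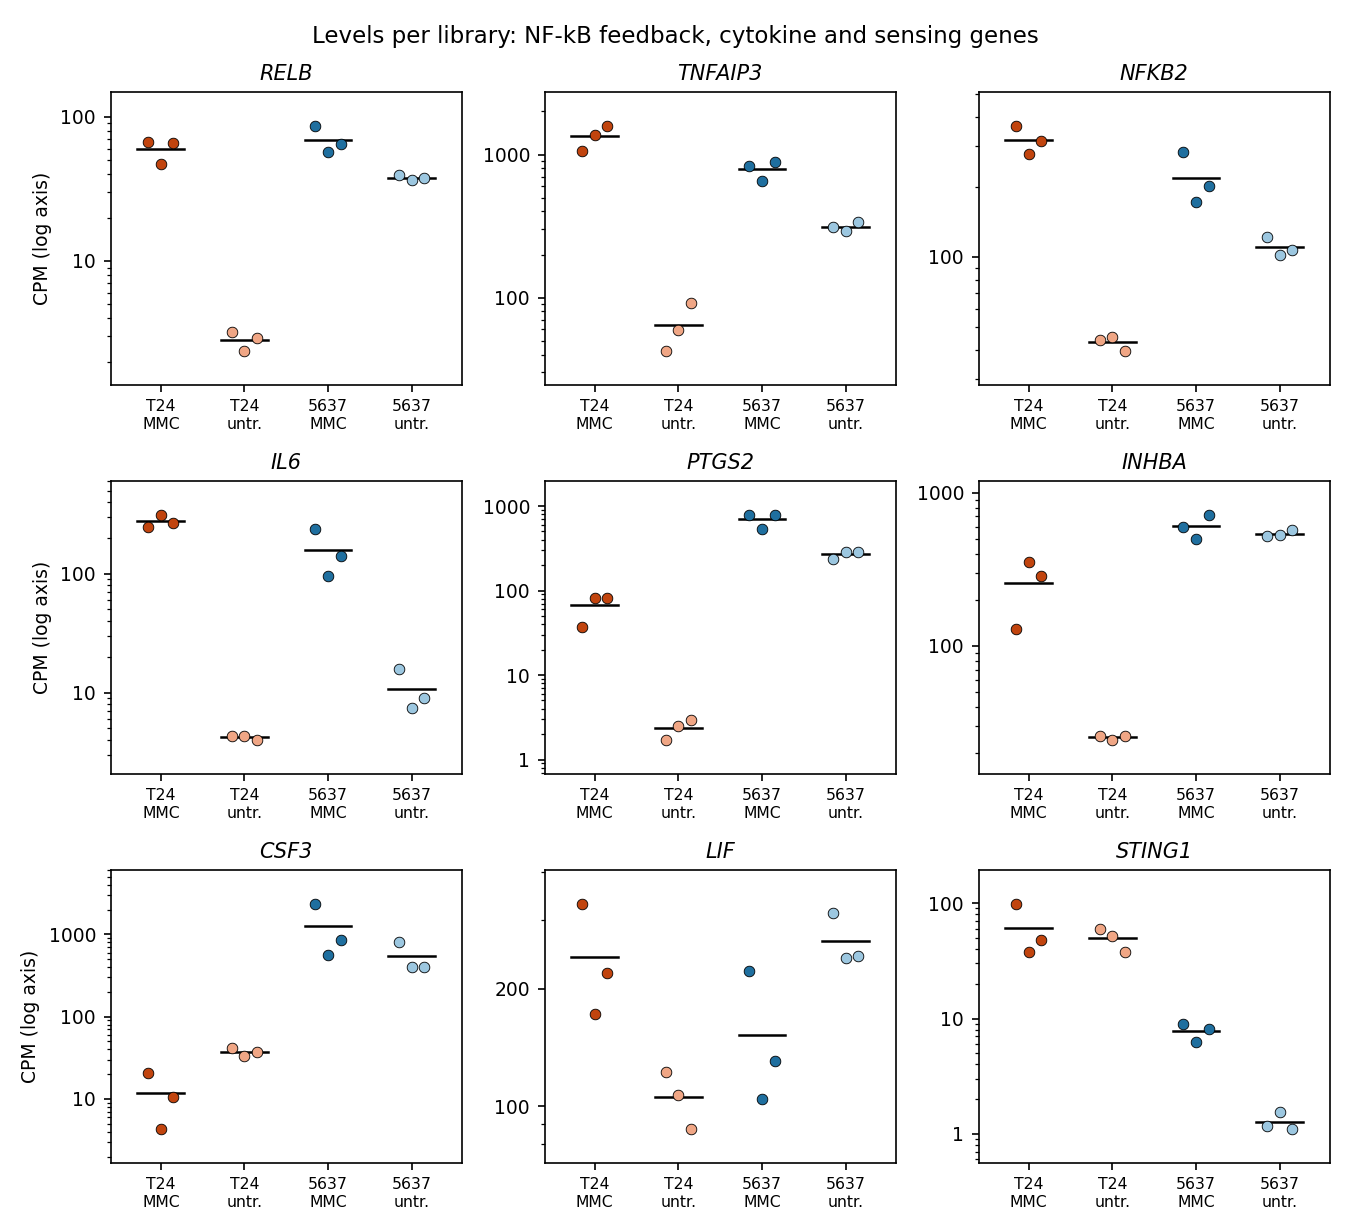
CPM on a log axis in each library of the 4 groups (treated T24, untreated T24, treated 5637, untreated 5637), with a bar at the group mean, for 9 genes of NF-kB feedback, cytokines and sensing. RELB, TNFAIP3 and INHBA are lowest in untreated T24, LIF moves in opposite directions in the 2 lines, and STING1 rises in 5637.

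Genes of the integrated stress response that passed the test were all higher in the T24 response. Of 20 tested, 8 were higher and 0 lower, with a median difference of 0.86. MMC raised 15 in T24 and lowered 0, and in 5637 it raised 8 and lowered 3. In the 12 libraries alone the count was 14 with the shared replicate terms and 3 without them, and it moved with single libraries, to 12 without treated 5637 replicate 1 and to 3 without untreated 5637 replicate 4 or untreated T24 replicate 3. CEBPB, a bZIP transcription factor, averaged 78.05 ± 21.6 CPM in treated T24 cells and 17.4 ± 1.36 CPM in untreated T24 cells, and 60.1 ± 4.94 CPM in treated 5637 cells and 44.6 ± 4.22 CPM in untreated 5637 cells (SD, n = 3 each), with responses of 2.17 (SE 0.22) in T24 and 0.43 (SE 0.21) in 5637 and a difference of 1.74 (SE 0.30, adjusted p = 0.00122). SLC7A11 and SLC3A2 form the cystine and glutamate exchanger. SLC7A11 had 46.5, 86.6 and 69.96 CPM in treated T24 cells, against 27.7, 27.5 and 42.3 CPM in untreated T24 cells. SLC7A11 levels were 56.8, 50.3 and 63.3 CPM in treated 5637 cells, against 74.8, 124 and 143 CPM in untreated 5637 cells. This transporter rose in T24 by 1.06 and fell by 1.00 on the log2 scale in 5637 (difference 2.06, SE 0.40, adjusted p = 0.00365). SLC3A2 rose in T24 by 1.15 and had a response of -0.06 in 5637 (difference 1.20, SE 0.22, adjusted p = 0.00218).

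Several genes of this programme rose in 5637 too. DDIT3, which encodes CHOP, rose by 2.89 in T24 and 1.96 in 5637, and PPP1R15A, which restores translation, by 2.96 in T24 and 2.18 in 5637. Their differences of 0.92 (SE 0.23, adjusted p = 0.0244) and 0.78 (SE 0.22, adjusted p = 0.0453) were called in 8 and 3 of the 12 fits that left out 1 library. ATF3 rose by 5.59 in T24 and 4.33 in 5637, with a difference of 1.26 (SE 0.41, adjusted p = 0.0911) that did not pass the test (in the 12 libraries alone, adjusted p = 0.0139 with the shared replicate terms and 0.108 without them), nor did that of ATF4 (0.77, SE 0.26, adjusted p = 0.0973). CHAC1 and ASNS, ATF4 targets, rose in both lines and their differences did not pass the test (adjusted p = 0.504 and 0.784). Of 7 called members with a promoter in the table, 0 held the element TGATGNAA that ATF4 and C/EBP factors bind, against 2 of 10 other members and 1.54% of promoters of genes tested.

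Aminoacyl-tRNA synthetases, which charge tRNAs, had 6 of 20 higher and 0 lower, and 3 to 7 without any 1 library. WARS1, the tryptophan enzyme, had 376, 275 and 268 CPM in treated T24 cells, against 160.5, 159 and 137 CPM in untreated T24 cells. WARS1 levels were 137, 105 and 106 CPM in treated 5637 cells, against 138, 139.6 and 132 CPM in untreated 5637 cells. It rose in T24 without overlap, and the 5637 groups overlapped (difference 1.25, SE 0.21, adjusted p = 0.000796). CARS1 and YARS1 also rose in T24 alone, with differences of 0.89 and 0.80.

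Unfolded protein response genes and ER chaperones had 6 of 20 higher and 0 lower, with 3 raised and 7 lowered in T24 and 2 raised and 13 lowered in 5637. HSPA5, the ER chaperone BiP (chromosome 9, 125234853 to 125241330), had 573, 569.9 and 507 CPM in treated T24 cells, against 789, 819.9 and 889 CPM in untreated T24 cells. HSPA5 levels were 464, 342 and 334 CPM in treated 5637 cells, against 1621, 1675 and 1423 CPM in untreated 5637 cells. It fell in both lines without overlap, and less in T24, with responses of -0.60 (SE 0.16) in T24 and -2.05 (SE 0.17) in 5637 and a difference of 1.45 (SE 0.23, adjusted p = 0.000506). XBP1, a transcription factor of this response, had 278, 179.7 and 205 CPM in treated T24 cells, against 98.9, 108 and 94.4 CPM in untreated T24 cells. XBP1 levels were 88.2, 59.5 and 68.1 CPM in treated 5637 cells, against 104, 100.1 and 98.7 CPM in untreated 5637 cells. XBP1 rose in T24 by 1.14 and fell by 0.49 on the log2 scale in 5637, a difference of 1.62 (SE 0.22, adjusted p = 7.4e-05). ERN1, the sensor that splices XBP1 RNA, rose in both lines and more in T24 (3.02 in T24 and 1.47 in 5637, difference 1.55, SE 0.26, adjusted p = 0.00107). HERPUD1, of ER-associated degradation, rose in T24 alone (difference 0.87, SE 0.20, adjusted p = 0.0127), and HYOU1, an ER chaperone, fell in 5637 alone (difference 0.75, SE 0.17, adjusted p = 0.0137).

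Noncoding host genes of small nucleolar RNAs showed 7 of 14 members higher in the T24 response and 0 lower, with a median difference of 0.80. MMC raised 8 and lowered 3 in T24, and raised 0 and lowered 5 in 5637. SNHG15 had 91.97, 72.3 and 96.3 CPM in treated T24 cells, against 29.9, 36.7 and 33.3 CPM in untreated T24 cells. SNHG15 levels were 56.95, 63.2 and 47.6 CPM in treated 5637 cells, against 59.8, 63.6 and 53.97 CPM in untreated 5637 cells. The untreated T24 libraries lay below all others and the treated T24 libraries above all others. Its difference was 1.46 (SE 0.20, adjusted p = 0.000125), and that of SNHG5 1.40 (SE 0.19, adjusted p = 0.000115). ZFAS1, EPB41L4A-AS1, GAS5 and SNHG1 rose in T24 alone, with differences of 1.38, 1.46, 0.99 and 0.85. SNHG1 lies beside SLC3A2, and ZFAS1 is antisense to another gene, and the strand setting of the count is not given, so reads of overlapping neighbours cannot be told apart.

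Ribosomal protein genes gave a smaller share of calls than all genes at 1 CPM or more (1.28% against 4.73%), and ribosome biogenesis genes a larger one (20%). Of 78 cytosolic ribosomal protein genes, MMC lowered 6 in T24 and 41 in 5637 and raised 0 in either, with median responses of -0.07 and -0.40. The difference was called for 1, RPL10A (0.86, SE 0.19, adjusted p = 0.0111), for 15 without treated 5637 replicate 1, and for 3 with a replicate block within each line. In the 12 libraries alone it was called for 10 with the shared replicate terms and for 0 without them. Ribosome biogenesis genes had 4 of 20 higher and 0 lower, and 7 without treated T24 replicate 1 or 2 without treated T24 replicate 4 or untreated T24 replicate 1. RRP12, a pre-rRNA processing factor, averaged 156 ± 32.5 CPM in treated T24 cells and 87.2 ± 7.83 CPM in untreated T24 cells, and 112 ± 6.93 CPM in treated 5637 cells and 154 ± 6.27 CPM in untreated 5637 cells (SD, n = 3 each). It rose in T24 and fell in 5637 (0.84 in T24 and -0.46 in 5637), a difference of 1.31 (SE 0.21, adjusted p = 0.000592). POLR1A, the largest subunit of RNA polymerase I, fell in 5637 alone (difference 0.90, SE 0.20, adjusted p = 0.00929). MYC, a driver of ribosome production, had 225, 93.9 and 130.0 CPM in treated T24 cells, against 118, 130.1 and 122 CPM in untreated T24 cells. MYC levels were 109, 74.4 and 77.2 CPM in treated 5637 cells, against 271, 212 and 215 CPM in untreated 5637 cells. It fell by 1.42 on the log2 scale in 5637 with a difference of 1.70 (SE 0.33, adjusted p = 0.00374). In T24 its treated replicate 1 was the highest and its groups overlapped.

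The called genes of G1/S and of mitosis were all lower in the T24 response. Of 30 genes of G1/S and DNA replication, 0 were higher and 7 lower, with a median difference of -0.32, and 4 to 7 were lower without any 1 library. MMC raised 12 and lowered 3 of them in T24, and raised 20 and lowered 1 in 5637. E2F2, a transcription factor of S-phase genes (chromosome 1, 23506430 to 23531220), had 53.1, 78.05 and 84.4 CPM in treated T24 cells, against 23.5, 29.2 and 24.98 CPM in untreated T24 cells. E2F2 levels were 41.9, 51.4 and 49.9 CPM in treated 5637 cells, against 6.40, 5.26 and 5.75 CPM in untreated 5637 cells. It rose in both lines with no overlap, more in 5637 from a lower untreated level, with responses of 1.47 (SE 0.17) in T24 and 3.04 (SE 0.19) in 5637 and a difference of -1.57 (SE 0.25, adjusted p = 0.000604). CCND3, a G1 cyclin, also rose in both, by 0.74 in T24 and 1.47 in 5637 (difference -0.73, SE 0.15, adjusted p = 0.00527). RRM2, the small subunit of ribonucleotide reductase, had 359, 337 and 348 CPM in treated T24 cells, against 298, 319 and 375 CPM in untreated T24 cells. RRM2 levels were 804, 548 and 597 CPM in treated 5637 cells, against 268, 311 and 286 CPM in untreated 5637 cells. It rose in 5637 alone, with the T24 groups overlapping and a difference of -1.10 (SE 0.20, adjusted p = 0.00237). POLE2, a subunit of DNA polymerase epsilon, fell by 0.75 in T24 (difference -1.12, SE 0.22, adjusted p = 0.00426). E2F1, PCNA and CCNE2 completed the 7, with differences of -0.64, -0.70 and -1.02, and were called in 3, 5 and 1 of the 12 fits that left out 1 library.

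CDKN2C, an inhibitor of CDK4 and CDK6 (chromosome 1, 50960745 to 50974633), had 62.1, 85.3 and 75.95 CPM in treated T24 cells, against 77.1, 74.2 and 72.3 CPM in untreated T24 cells. CDKN2C levels were 12.4, 23.6 and 21.8 CPM in treated 5637 cells, against 3.25, 2.80 and 2.80 CPM in untreated 5637 cells. The T24 groups overlapped at a high level, and treated 5637 libraries lay between untreated 5637 and T24. The responses were 0.00 (SE 0.18) in T24 and 2.71 (SE 0.21) in 5637, a difference of -2.71 (SE 0.27, adjusted p = 1.26e-06). RB1, whose protein restrains E2F factors, had 71.02, 87.01 and 74.3 CPM in treated T24 cells, against 126, 117 and 144 CPM in untreated T24 cells. RB1 levels were 6.50, 6.83 and 8.39 CPM in treated 5637 cells, against 3.76, 5.41 and 5.15 CPM in untreated 5637 cells. It fell by 0.74 in T24 and rose in 5637 by 0.60, where it stayed below all T24 libraries, a difference of -1.33 (SE 0.25, adjusted p = 0.00232). Promoters were searched for the E2F sites TTTGGCGC and TTTCCCGC on both strands in the same windows. Of 6 called G1/S members with a promoter in the table, 3 held a match (E2F1, E2F2 and PCNA), as did 9 of 18 other members, 2.93% of promoters of genes tested, 1.69% of genes higher in the T24 response and 6.02% of genes lower. E2F1 and E2F2 are shown with the site in capitals because both are themselves E2F genes called lower, and their sites begin 20 and 42 bases before the gene start.
E2F1, chr20:33686386-33686635, minus strand: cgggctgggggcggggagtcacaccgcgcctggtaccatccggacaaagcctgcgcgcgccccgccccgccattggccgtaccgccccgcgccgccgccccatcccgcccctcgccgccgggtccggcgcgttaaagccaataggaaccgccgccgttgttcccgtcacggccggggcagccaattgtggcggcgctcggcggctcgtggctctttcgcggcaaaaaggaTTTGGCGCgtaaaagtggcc
E2F2, chr1:23531234-23531483, minus strand: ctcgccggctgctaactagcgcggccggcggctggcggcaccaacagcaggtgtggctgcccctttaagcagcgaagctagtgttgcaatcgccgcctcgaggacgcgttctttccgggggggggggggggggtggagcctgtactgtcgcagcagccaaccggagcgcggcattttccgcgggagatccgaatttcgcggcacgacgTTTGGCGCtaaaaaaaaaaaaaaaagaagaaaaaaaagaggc

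Of 30 G2 and mitosis genes, 0 were higher in the T24 response and 3 lower, CDK1, CCNA2 and CCNF. The share called was 10%, against 4.73% of all genes at 1 CPM or more. The median difference was -0.14, with 9 members above 0 and 21 below. MMC lowered 17 and raised 1 in T24, and lowered 14 and raised 2 in 5637. CCNA2, the cyclin of S phase and G2, had 45.4, 69.2 and 61.99 CPM in treated T24 cells, against 134, 134 and 138 CPM in untreated T24 cells. CCNA2 levels were 83.2, 90.3 and 97.9 CPM in treated 5637 cells, against 92.05, 95.5 and 98.6 CPM in untreated 5637 cells. It fell in T24, and the 5637 groups overlapped, for a difference of -1.13 (SE 0.19, adjusted p = 0.000796). CDK1, the mitotic kinase, averaged 123 ± 16.6 CPM in treated T24 cells and 168 ± 25.8 CPM in untreated T24 cells, and 234 ± 17.8 CPM in treated 5637 cells and 174 ± 5.75 CPM in untreated 5637 cells (SD, n = 3 each), fell by 0.45 in T24 and rose in 5637 by 0.43 on the log2 scale (difference -0.88, SE 0.19, adjusted p = 0.00956). CCNF, which marks proteins for degradation, fell in T24 alone (difference -0.85, SE 0.16, adjusted p = 0.00232). CCNB1, the mitotic cyclin, fell in both lines, with responses of -1.51 in T24 and -1.36 in 5637, and its difference of -0.16 (SE 0.19, adjusted p = 0.783) did not pass the test.

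**Figure D3:**
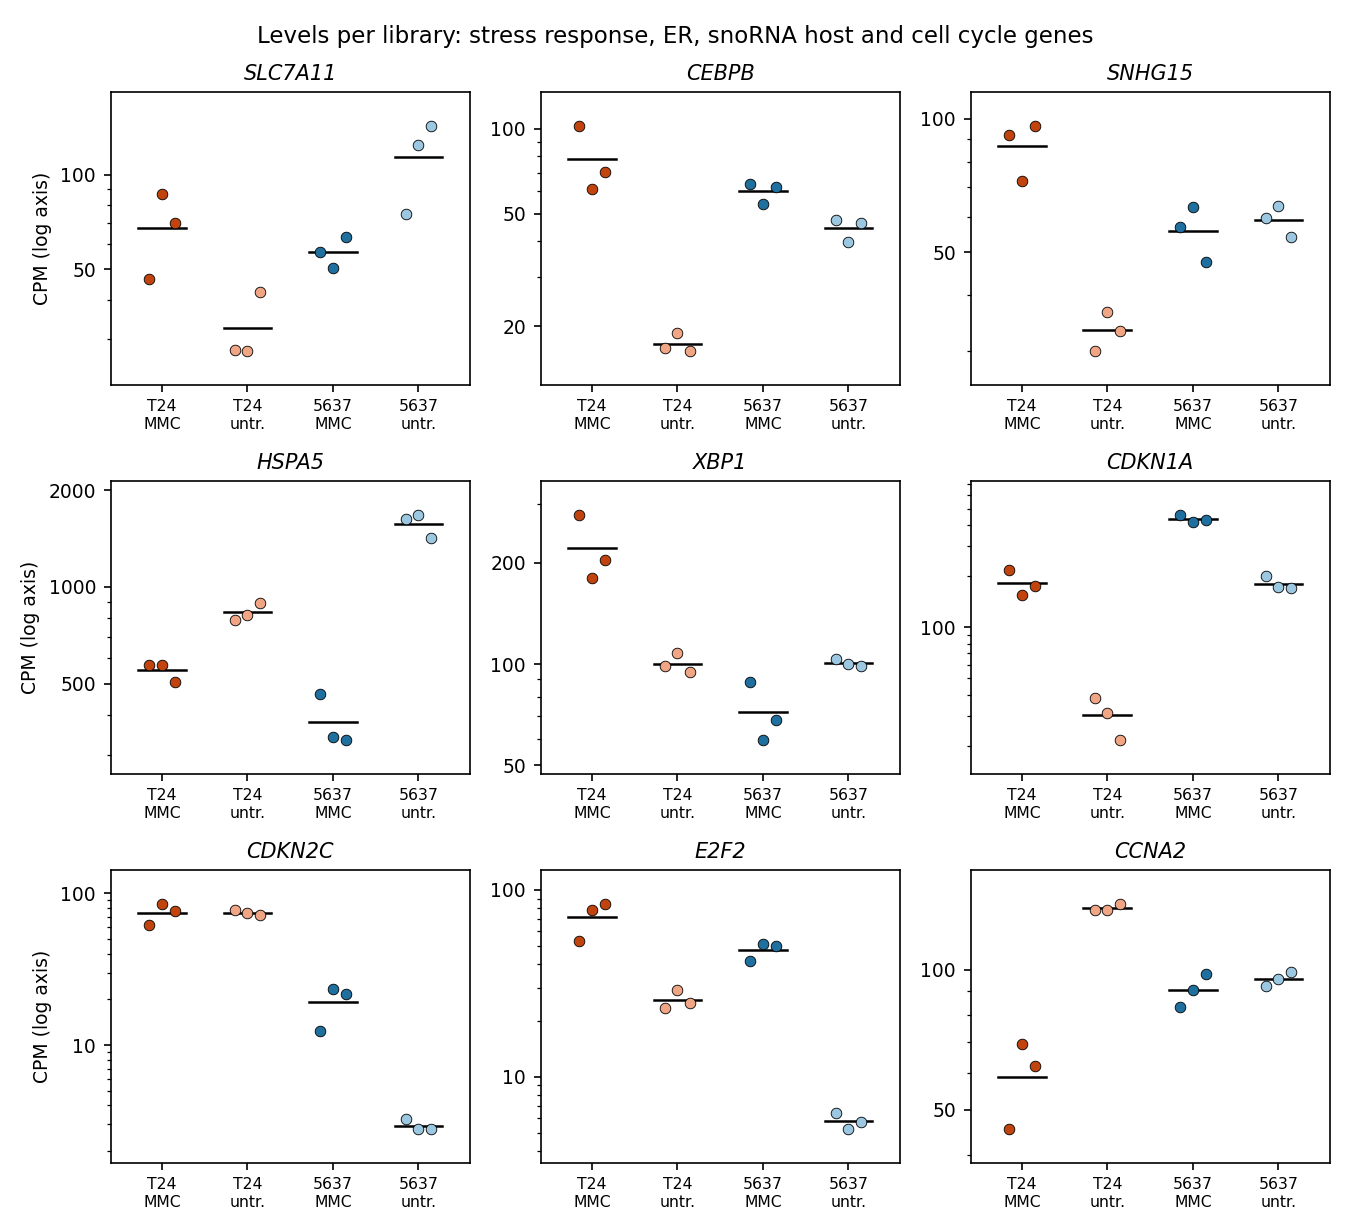
CPM on a log axis in each library of the 4 groups (treated T24, untreated T24, treated 5637, untreated 5637), with a bar at the group mean, for 9 genes of the stress response, ER, snoRNA hosts and cell cycle. SLC7A11 and XBP1 move in opposite directions in the 2 lines, CDKN2C rises in 5637 only to below the T24 level, and CCNA2 falls in T24.

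Of a list of 31 genes that holds CDKN1A, MDM2, GADD45A, BTG2 and PMAIP1, 5 were higher in the T24 response and 2 lower, with a median difference of 0, and without any 1 library 3 to 6 were higher and 0 to 2 lower. With the 12 libraries alone 3 were higher and 1 lower. MMC raised 15 in T24 and 12 in 5637 and lowered 2 in each. CDKN1A (p21), which stops the cell cycle, had 218, 154 and 175 CPM in treated T24 cells, against 38.2, 31.1 and 21.6 CPM in untreated T24 cells. CDKN1A levels were 460.3, 417 and 430.0 CPM in treated 5637 cells, against 199, 172 and 171 CPM in untreated 5637 cells. It rose without overlap in both lines, by 2.59 (SE 0.21) in T24 and 1.27 (SE 0.20) in 5637, a difference of 1.32 (SE 0.28, adjusted p = 0.00848). GADD45A and BTG2, growth arrest genes, also rose in both and more in T24, with differences of 1.40 (SE 0.21, adjusted p = 0.000432) and 1.69 (SE 0.35, adjusted p = 0.00612). MDM2, a ubiquitin ligase, had responses of 0.38 in T24 and 0.32 in 5637 that did not pass the test in either line (difference 0.06, SE 0.21, adjusted p = 1). PMAIP1 (NOXA), which promotes apoptosis, rose in both and more in 5637 (difference -1.16, SE 0.28, adjusted p = 0.0194), and was called in 6 of the 12 fits that left out 1 library.

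Death and repair genes gave calls for 4% to 11.1% of the members of a list, against 4.73% of all genes at 1 CPM or more. Of 18 pro-apoptotic genes (11.1% called), 1 was higher, BIK (1.91), and 1 lower, PMAIP1. The Fanconi and homologous recombination genes, which repair crosslinks, had 1 of 25 called (4%), RBBP8 (chromosome 18, 22798261 to 23026488). RBBP8, which encodes the end resection factor CtIP, had 52.6, 149 and 118 CPM in treated T24 cells, against 49.1, 68.5 and 102 CPM in untreated T24 cells. RBBP8 levels were 8.98, 2.18 and 2.83 CPM in treated 5637 cells, against 32.9, 35.4 and 29.8 CPM in untreated 5637 cells. It fell in 5637 without overlap, and the T24 groups overlapped, for responses of 0.54 (SE 0.34) in T24 and -2.81 (SE 0.38) in 5637 and a difference of 3.35 (SE 0.51, adjusted p = 0.000491). In the 12 libraries alone its adjusted p was 0.117 with the shared replicate terms and 0.0235 without them. Checkpoint kinases and partners had 1 of 16 called (6.25%), RAD1, and nucleotide excision and translesion genes 2 of 20 (10%), UVSSA (1.06) and RAD23B. RAD1 and RAD23B were each called in 1 of the 12 fits that left out 1 library.

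Opposite directions were called for 76 genes, of which 16 are given by rule and 9 as list members. DLL1, a Notch ligand (chromosome 6, 170282206 to 170306565), had 1.84, 1.05 and 0.898 CPM in treated T24 cells, against 0.465, 0.229 and 0.264 CPM in untreated T24 cells. DLL1 levels were 37.8, 35.2 and 33.2 CPM in treated 5637 cells, against 70.3, 79.1 and 78.5 CPM in untreated 5637 cells. It rose in T24 from a trace and fell in 5637, where all libraries stayed above T24. The responses were 1.93 (SE 0.30) in T24 and -1.10 (SE 0.18) in 5637, a difference of 3.04 (SE 0.35, adjusted p = 1.03e-05). LFNG, a glycosyltransferase that modifies Notch, moved likewise (1.19 in T24 and -0.88 in 5637, difference 2.07, SE 0.34, adjusted p = 0.000713). TGFB2 (chromosome 1, 218346235 to 218444619), a TGF-beta ligand, had 59.9, 54.8 and 50.9 CPM in treated T24 cells, against 18.1, 26.8 and 22.1 CPM in untreated T24 cells. TGFB2 levels were 54.05, 33.5 and 40.99 CPM in treated 5637 cells, against 75.8, 75 and 79.6 CPM in untreated 5637 cells. Treated T24 and treated 5637 libraries overlapped, while untreated 5637 lay above untreated T24. The responses were 1.30 (SE 0.18) in T24 and -0.84 (SE 0.18) in 5637, a difference of 2.15 (SE 0.25, adjusted p = 1.14e-05).

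SP110, a nuclear body protein induced by interferon, averaged 39.1 ± 8.14 CPM in treated T24 cells and 13.7 ± 1.04 CPM in untreated T24 cells, and 7.17 ± 1.67 CPM in treated 5637 cells and 12.9 ± 0.820 CPM in untreated 5637 cells (SD, n = 3 each). Untreated T24 and untreated 5637 overlapped, and the treated groups lay on either side, with a difference of 2.36 (SE 0.29, adjusted p = 2.05e-05). FRAS1, an extracellular matrix protein, FBXO32, a ubiquitin ligase subunit, and ARHGEF3, an activator of RhoA, were below 2 CPM in untreated T24, rose there and fell in 5637, with differences of 2.93, 2.65 and 1.94. IFI16, RRP12, NOL6, SNAI2, TAPBP, ABCC3, LIF and XBP1 had the same pattern, and NOL6 lost its call without treated T24 replicate 4 (adjusted p = 0.0626) or untreated T24 replicate 1 (0.0591). SNAI2, a repressor of epithelial genes, rose in T24 by 0.72 and fell by 0.78 on the log2 scale in 5637 (difference 1.49, SE 0.26, adjusted p = 0.00153).

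In the reverse pattern, KCNJ2, an inward rectifier potassium channel, had 7.47, 6.41 and 7.23 CPM in treated T24 cells, against 17.4, 13.02 and 13.7 CPM in untreated T24 cells. KCNJ2 levels were 5.33, 6.06 and 5.91 CPM in treated 5637 cells, against 3.15, 2.99 and 2.53 CPM in untreated 5637 cells. Its treated groups were separated by less than the untreated ones, with responses of -1.06 (SE 0.21) in T24 and 1.00 (SE 0.23) in 5637 and a difference of -2.06 (SE 0.31, adjusted p = 0.00062). FOXA1, a pioneer transcription factor of urothelium, averaged 27.6 ± 8.88 CPM in treated T24 cells and 44.1 ± 12.8 CPM in untreated T24 cells, and 11.5 ± 1.41 CPM in treated 5637 cells and 6.75 ± 1.16 CPM in untreated 5637 cells (SD, n = 3 each; difference -1.44, SE 0.31, adjusted p = 0.00843). FOXA1 was the only called gene of 6 tested urothelial transcription factors and uroplakins, and the only one with a difference below 0. The other 5 lay above 0, and the median of the list was 0.38. ENPP4, AHNAK2, HOXD8 and GINM1 fell in T24 and rose in 5637 with differences of -1.80, -1.39, -1.35 and -1.22. RAB3D, a GTPase of secretory granules, had a difference of -1.25 (SE 0.31, adjusted p = 0.0232) and was called in 6 of the 12 fits that left out 1 library.

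Nucleic acid sensing genes differed in both directions, with 3 of 12 higher in the T24 response and 1 lower. STING1, the adaptor of cytosolic DNA sensing (chromosome 5, 139475534 to 139482935), had 98.7, 37.5 and 47.8 CPM in treated T24 cells, against 60.2, 51.8 and 37.9 CPM in untreated T24 cells. STING1 levels were 8.94, 6.23 and 8.09 CPM in treated 5637 cells, against 1.17, 1.54 and 1.10 CPM in untreated 5637 cells. The T24 groups overlapped, with treated replicate 1 the highest, and treated 5637 was above untreated 5637 but below all T24 libraries. The responses were 0.29 (SE 0.24) in T24 and 2.60 (SE 0.31) in 5637, a difference of -2.31 (SE 0.39, adjusted p = 0.00107), or -2.80 without treated T24 replicate 1. IFI16, a DNA sensor, averaged 93.5 ± 14.6 CPM in treated T24 cells and 57.2 ± 9.45 CPM in untreated T24 cells, and 43.6 ± 4.37 CPM in treated 5637 cells and 66 ± 9.36 CPM in untreated 5637 cells (SD, n = 3 each) and moved in opposite directions (difference 1.31, SE 0.23, adjusted p = 0.00149). IFIH1 (MDA5), an RNA sensor, rose in T24 alone (difference 2.04, SE 0.38, adjusted p = 0.00261), and TLR3, a receptor for double-stranded RNA, fell in 5637 alone (difference 2.17, SE 0.45, adjusted p = 0.00561).

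Of 28 interferon-stimulated genes, MMC raised 21 in T24 and 9 in 5637 and lowered 0 in either, and the difference was called higher for 2 and lower for 1, with a median of 0.46. Without any 1 library, 1 to 4 were called higher, and in the 12 libraries alone 4 with the shared replicate terms and 1 without them. IRF9, a subunit of the interferon-activated factor ISGF3, rose in T24 alone (difference 1.86, SE 0.39, adjusted p = 0.00741), IFIT3 likewise (1.40, SE 0.35, adjusted p = 0.0257, called in 7 of the 12 fits that left out 1 library and at an adjusted p of 0.0531 with a replicate block within each line), and HERC5, the ligase for ISG15, rose in 5637 alone (-1.46, SE 0.32, adjusted p = 0.0113). Of 16 MHC class I antigen presentation genes, 3 were higher and 0 lower, against 6 higher without treated 5637 replicate 1 and 5 without treated T24 replicate 1. In the 12 libraries alone 7 were higher with the shared replicate terms and 2 without them. IRF1, their activator, rose in both lines and more in T24 (1.83 in T24 and 0.58 in 5637, difference 1.25, SE 0.23, adjusted p = 0.00189), and TAPBP (tapasin), which loads peptides, rose in T24 and fell in 5637 (0.44 in T24 and -0.48 in 5637, difference 0.92, SE 0.19, adjusted p = 0.00521).

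Immediate-early genes of the EGR, KLF and related families had 6 of 21 higher (KLF4, KLF5, KLF10, MYC, BTG2 and NR4A1) and 1 lower (CCN2). KLF10, a TGF-beta induced factor, rose in T24 alone (difference 1.28, SE 0.19, adjusted p = 0.000233), as did KLF5 (1.03). KLF4 lost its call without untreated 5637 replicate 4 (adjusted p = 0.059) or untreated T24 replicate 4 (0.079), and in the 12 libraries alone its adjusted p was 0.0545 with the shared replicate terms and 0.111 without them. NR4A1 and CCN2 were called in 5 and 7 of the 12 fits that left out 1 library. In the AP-1 family (14 tested), JUNB (1.68) and FOSL2 (0.90) were higher and FOSB lower (-1.99, SE 0.47, adjusted p = 0.0178), which lost its call without treated 5637 replicate 4 (adjusted p = 0.0594) or untreated 5637 replicate 1 (0.0671). The DUSP phosphatases, which switch off MAP kinases, had 3 of 10 higher and 0 lower. DUSP10 (chromosome 1, 221701424 to 221742176), which acts on p38 and JNK, had 11.3, 9.55 and 10.6 CPM in treated T24 cells, against 0.930, 1.19 and 0.830 CPM in untreated T24 cells. DUSP10 levels were 46.7, 44.1 and 40.8 CPM in treated 5637 cells, against 49, 40.04 and 44.1 CPM in untreated 5637 cells. The 5637 groups overlapped and all T24 libraries lay below them, with responses of 3.42 (SE 0.20) in T24 and -0.02 (SE 0.15) in 5637 and a difference of 3.43 (SE 0.25, adjusted p = 1.15e-08), the smallest adjusted p of all genes tested. DUSP8 rose in both lines, with a difference of 2.15, and DUSP16 rose in T24 alone, with a difference of 1.23 that lost its call without untreated 5637 replicate 1 (adjusted p = 0.074) or untreated T24 replicate 3 (0.0505).

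**Figure D4:**
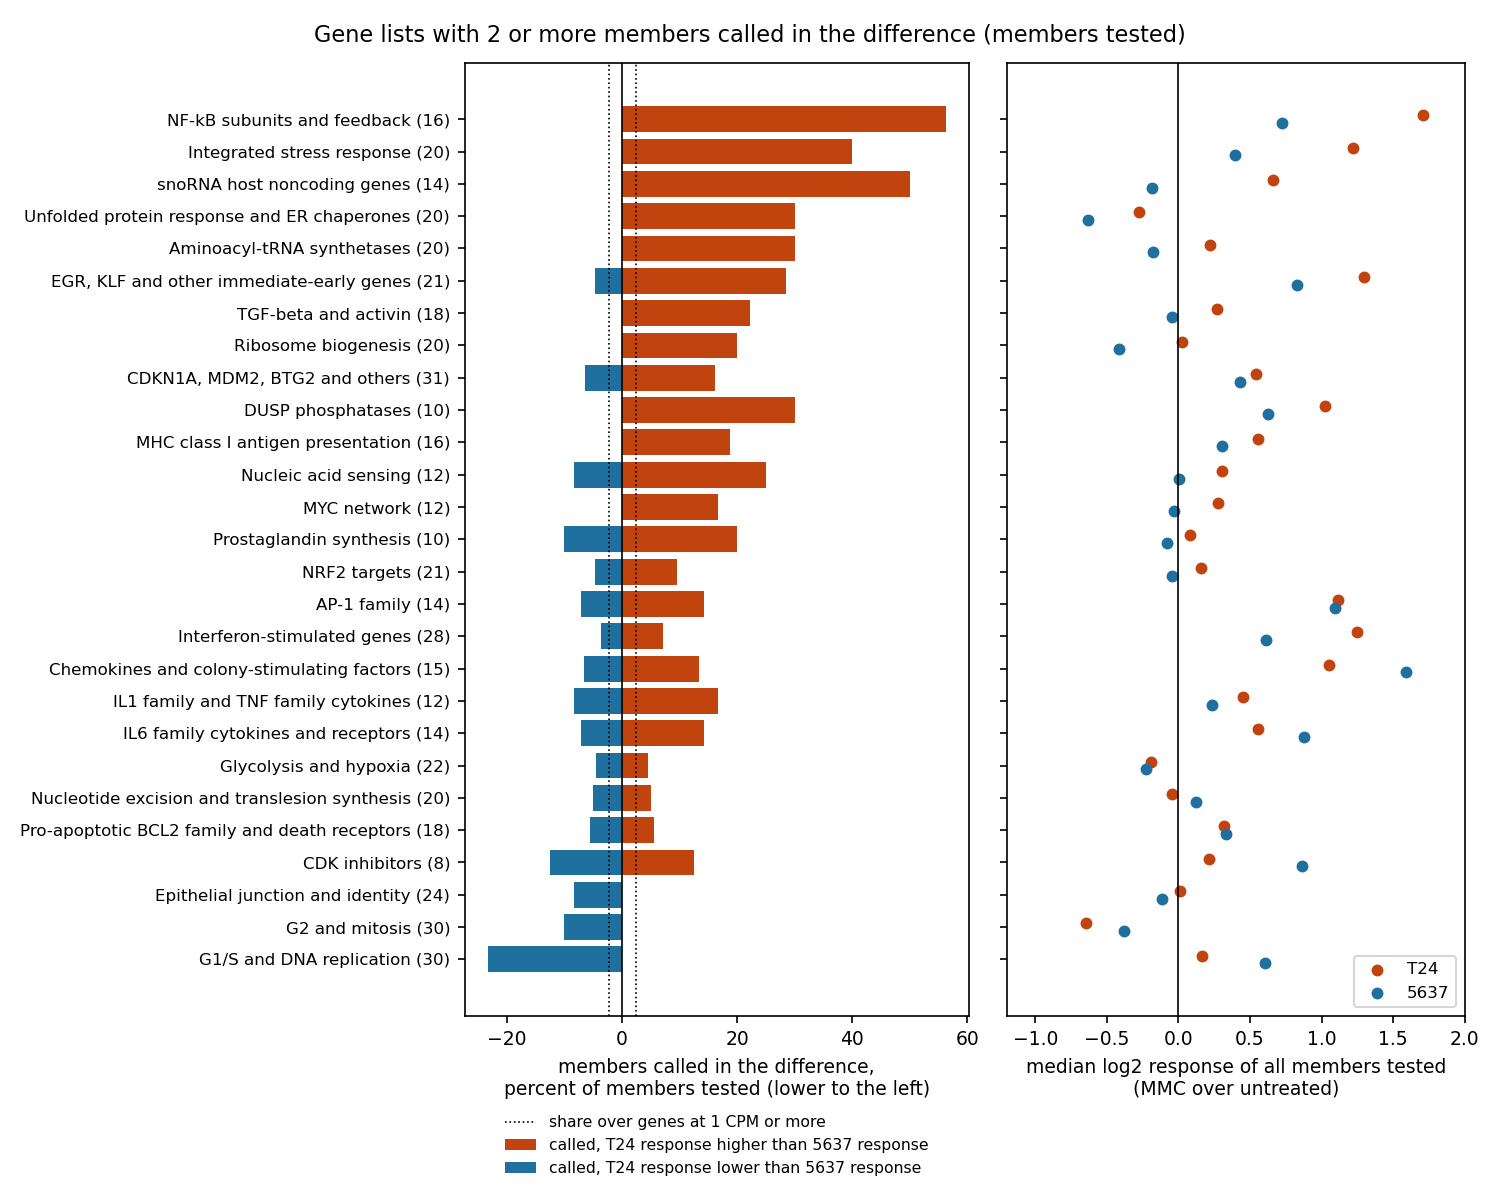
Left, the percent of tested members called in the difference for lists with 2 or more called members, higher in the T24 response to the right and lower to the left, with dotted lines at the shares over genes at 1 CPM or more; right, the median log2 response of all tested members in T24 and 5637. NF-kB feedback and snoRNA host genes have the largest shares higher (9 of 16 and 7 of 14), and G1/S genes the largest share lower (7 of 30).

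Across the 46 lists, 38 had at least 1 called member, 28 had more members higher than lower in the T24 response, 6 had more lower, and 8 had 0. The 8 were heat shock chaperones, replication-dependent histones, mitochondrially encoded genes, ERBB receptors and EGF ligands, plasminogen activation and tissue factor genes, and leukocyte, endothelial and fibroblast markers. These counts of lists are a description, since the lists were chosen with earlier results known. Some genes, such as SLC7A11, MYC and CDKN1A, are in more than 1 list. Cholesterol synthesis genes fell in both lines (11 of 24 in T24 and 14 in 5637), with 1 called in the difference (4.17%, against 4.73% of all genes at 1 CPM or more). Of 31 proteasome subunits 1 was called (3.23%), PSMC6 (-0.84). Among enzymes that reduce MMC and efflux pumps, 1 of 10 was called (10%), XDH (1.55, SE 0.43, adjusted p = 0.0461), in 2 of the 12 fits that left out 1 library. NRF2 targets had 2 of 21 higher, SLC7A11 and the efflux pump ABCC3, and 1 lower, AKR1C1 (14.3% called). Epithelial junction genes had 0 of 24 higher and 2 lower, EPCAM and OCLN (8.33%). The list as a whole did not follow these 2, since 16 members had a difference above 0 and 8 below, with a median of 0.27. MMC lowered 2 members and raised 1 in T24, and lowered 7 and raised 2 in 5637. OCLN, which encodes the tight junction protein occludin, was called in 4 of the 12 fits that left out 1 library, with an adjusted p of up to 0.119. EPCAM, an epithelial adhesion protein, had 1.68, 1.05 and 1.30 CPM in treated T24 cells, against 3.25, 2.60 and 2.83 CPM in untreated T24 cells. EPCAM levels were 256, 174 and 188 CPM in treated 5637 cells, against 179.7, 166 and 176 CPM in untreated 5637 cells. It fell in T24, where it was a trace, with a difference of -1.37 (SE 0.26, adjusted p = 0.00326). VEGFA, an angiogenic growth factor, rose in T24 alone (difference 1.65, SE 0.25, adjusted p = 0.000382), and SAT1, the polyamine acetyltransferase, rose in both and more in T24 (2.96 in T24 and 0.81 in 5637, difference 2.15, SE 0.32, adjusted p = 0.000309). Fibroblast markers summed to 4.002 to 8.28 CPM in treated T24 and 2.64 to 3.68 CPM in untreated T24, and to 99.2 to 121 CPM in treated 5637 and 50.9 to 64.5 CPM in untreated 5637, with DCN at 0 in all 12 libraries and no member of that list called in the difference.

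The remaining genes with the largest positive differences were NEDD9, IL32, OLR1, WIPF1, MYLK and SLC1A3. NEDD9, a scaffold of cell adhesion signalling (chromosome 6, 11183298 to 11382348), had 17.97, 12.6 and 14.8 CPM in treated T24 cells, against 1.24, 0.503 and 1.09 CPM in untreated T24 cells. NEDD9 levels were 101, 79.6 and 97.7 CPM in treated 5637 cells, against 88.4, 83.9 and 87.8 CPM in untreated 5637 cells. The 5637 groups overlapped and T24 rose without reaching them, a difference of 3.87 (SE 0.33, adjusted p = 8.7e-08). IL32, an inflammatory cytokine, averaged 7.12 ± 1.92 CPM in treated T24 cells and 0.582 ± 0.101 CPM in untreated T24 cells, and 120.4 ± 21.4 CPM in treated 5637 cells and 124 ± 8.81 CPM in untreated 5637 cells (SD, n = 3 each), a difference of 3.64 (SE 0.31, adjusted p = 4.7e-07). OLR1, a scavenger receptor for oxidised LDL, rose in both lines (difference 3.49, SE 0.80, adjusted p = 0.014), and lost its call without untreated T24 replicate 1 (adjusted p = 0.064) or 4 (0.0562). WIPF1, a partner of the actin regulator WASP, had 6, 3 and 2 counts in treated T24 and 0 in all untreated T24 libraries. Set against 3 counts over that group, it was at least 4.5-fold higher, and WIPF1 had 15.9, 17.6 and 16.5 CPM in treated 5637 cells, against 16.9, 14.8 and 14.99 CPM in untreated 5637 cells.

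MYLK and SLC1A3 fell in 5637 and did not pass the test in T24. MYLK, myosin light chain kinase, had 1.46, 0.273 and 0.150 CPM in treated T24 cells, against 0.504, 0.823 and 0.566 CPM in untreated T24 cells. MYLK levels were 1.17, 0.683 and 0.809 CPM in treated 5637 cells, against 7.78, 11.8 and 10.7 CPM in untreated 5637 cells. Without treated T24 replicate 1, the highest treated T24 library, its difference of 3.46 (SE 0.65, adjusted p = 0.00299) was 2.01 (adjusted p = 0.115). SLC1A3, a glutamate transporter, was below 1 CPM in all T24 libraries and had 13.7, 17.1 and 13.8 CPM in treated 5637 cells, against 68.1, 55.2 and 60.7 CPM in untreated 5637 cells, a difference of 3.11 (SE 0.62, adjusted p = 0.00402), with an adjusted p of 0.0523 without treated T24 replicate 3.

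Among the largest negative differences, 5637 alone responded for several genes. ESM1, the secreted proteoglycan endocan (chromosome 5, 54977864 to 55022671), had 90.3, 47.5 and 83.9 CPM in treated T24 cells, against 66.4, 58.8 and 92.5 CPM in untreated T24 cells. ESM1 levels were 117, 138 and 169.9 CPM in treated 5637 cells, against 9.10, 12.1 and 13.2 CPM in untreated 5637 cells. The T24 groups overlapped, and treated 5637 libraries lay above all others, with responses of 0.03 (SE 0.23) in T24 and 3.63 (SE 0.25) in 5637 and a difference of -3.60 (SE 0.33, adjusted p = 4.53e-07). ARG2, the mitochondrial arginase, had 28.7, 17.7 and 17.1 CPM in treated T24 cells, against 20.8, 17.3 and 15.7 CPM in untreated T24 cells. ARG2 levels were 44.7, 33.1 and 44.8 CPM in treated 5637 cells, against 5.69, 6.13 and 5.06 CPM in untreated 5637 cells. It rose in 5637 alone, with a difference of -2.62 (SE 0.28, adjusted p = 3.97e-06). AKR1C1, an aldo-keto reductase and NRF2 target, rose in 5637 alone (-0.45 in T24 and 1.69 in 5637, difference -2.14, SE 0.34, adjusted p = 0.000624). ACOT11, an acyl-CoA thioesterase, fell in T24 alone (difference -2.13, SE 0.48, adjusted p = 0.0111), and lost its call without treated T24 replicate 4 (adjusted p = 0.0546). RIMS1 and LRRN4 had differences of -2.64 and -2.02, each called in 2 of the 12 fits that left out 1 library.

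Gene span went with the response in both lines. Among genes at 1 CPM or more with an annotated span of 500 kb and over (166 genes), the median response was -1.30 in T24 and -1.61 in 5637, the median difference was 0.41, and 69.3% had a difference above 0, against 46.7% of 3833 genes under 10 kb. In this group 10 genes were called higher and 3 lower, or 7.83%, against 4.73% of all genes at 1 CPM or more. The fall varied among treated libraries of a line. The median of these genes was -0.61, -1.81 and -1.43 in treated T24 replicates 1, 3 and 4, and -1.22, -2.14 and -1.85 in treated 5637 replicates 1, 3 and 4, relative to the untreated mean of the line. Replicate 1 fell least and replicate 3 most in both lines, and the median was lower in 5637 than in T24 at each of the 3 replicate numbers, while the ranges over the 3 numbers overlapped. The difference between the lines in these medians was not tested. Whether the same source sets apart replicate 1 in the gene responses was not tested.

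**Figure D5:**
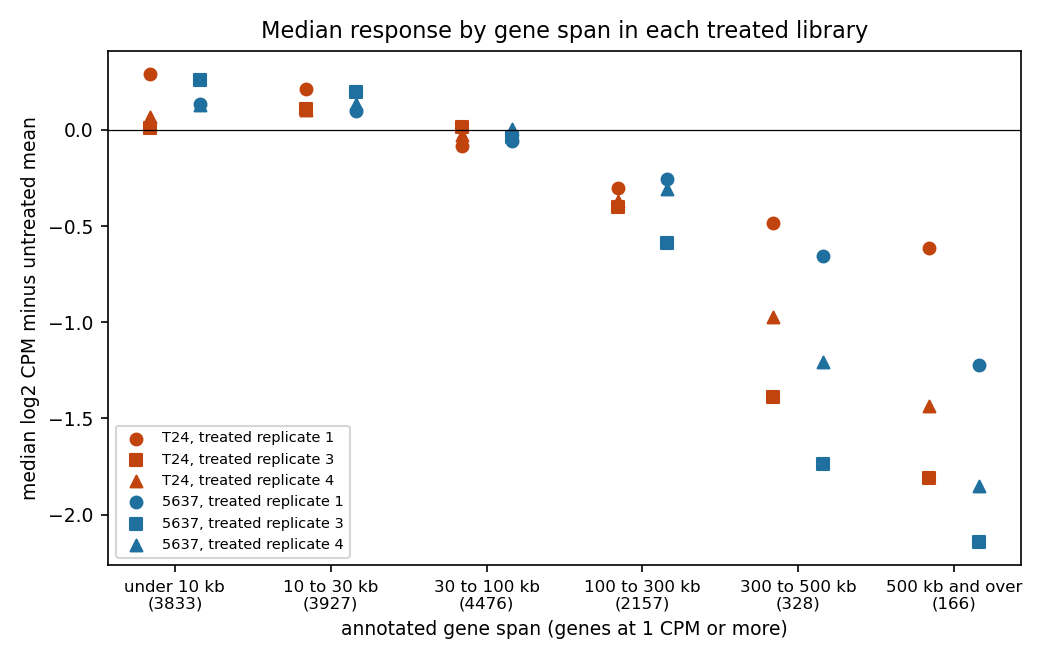
Median log2 response, against the untreated mean of the line, of genes at 1 CPM or more in 6 classes of annotated gene span (horizontal axis), for each treated library of T24 and 5637. In the class of 500 kb and over the medians run from -1.81 to -0.61 in T24 and from -2.14 to -1.22 in 5637, with replicate 1 the highest in each line.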

How the data were processed

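The authors deposited read counts per gene, whole numbers with no normalization. Alignment with STAR 2.5.3a to GRCh38 and counting with featureCounts 1.6.2 are named per the submitters' processing notes, while the annotation release, strand setting and multi-mapping rule were not given in the sources used here. Per the labels' protocols the libraries were stranded poly(A) libraries. Of 58381 gene IDs, 58216 matched GENCODE 29, which gave symbols and coordinates, and the other 165 held 0.0072% of reads. Promoters came from RefSeq (GRCh38.p14).

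Counts were fitted with edgeR 4.0.16 in R 4.3.3: genes kept by filterByExpr (20820), TMM scaling, and a quasi-likelihood model of all 24 libraries in 8 groups with 16 residual degrees of freedom. The 2 responses and their difference were contrasts of that fit, with Benjamini-Hochberg adjustment over all genes tested and calls at an adjusted p under 0.05. The fitting was also run on simulated counts with planted differences, independent libraries and the same spread for all genes. That simulation held no replicate that stood apart, so it does not test the fit under the replicate pattern of these data. Alternatives were DESeq2 1.42.0, RLE scaling, no filter, smaller sets of libraries, replicate blocks, a stricter threshold and leaving out libraries. Counted reads ranged from 19384501 to 28821665 over the 12 libraries, and intervals cover the spread between libraries.

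The genes named were, among called genes with at least 10 CPM in the highest group and responses that did not overlap, the 12 with the largest positive and the 12 with the largest negative difference. To these were added the 8 genes of each opposite pattern with the largest value of the smaller of the 2 responses, up to 4 called members of each list, any list member, and a few genes of known roles, and some genes that the rule names are not reported here. The members and the lists were chosen with earlier results of these data known. Libraries of 1 group differed by more than sampling noise (lowest chi-square per gene 6.996). Same-numbered libraries of 5637 deviated together (r = 0.326, 0.156 and 0.444), weakly for number 3, against -0.44 to 0.07 for libraries of unlike number. Those of T24 did not in every pair (0.402, -0.232 and 0.43). The main fit has 1 mean per group and no pairing, and a replicate block within each line was an alternative.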

Additional observations from a re-analysis of the deposited data

Results flagged for a closer look

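The treatment effect differed between the lines by the test of the interaction for 722 genes, 369 higher and 353 lower in the T24 response. Groups of 3 libraries are too small for the search for single outlying samples.

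Among the genes with opposite called responses in the 2 lines, 16 were flagged because the difference itself passed the test. Those that rose in T24 and fell in 5637 were DLL1 (log2 difference 3.04), FRAS1 (2.93), FBXO32 (2.65), SP110 (2.36), TGFB2 (2.15), LFNG (2.07), SLC7A11 (2.06) and ARHGEF3 (1.94). Those that fell in T24 and rose in 5637 were KCNJ2 (-2.06), ENPP4 (-1.80), FOXA1 (-1.44), AHNAK2 (-1.39), HOXD8 (-1.35), RB1 (-1.33), RAB3D (-1.25) and GINM1 (-1.22). FRAS1, FBXO32, ARHGEF3 and DLL1 were below 2 CPM in untreated T24, where a small change in counts gives a large log2 change. RAB3D lost its call in 6 of the 12 fits that left out 1 library, and each of the other 15 kept it in all 12.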

How the results depend on the processing

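Genes called both in the main fit and in a setting all kept their direction there, and the number of calls moved. The fits share most or all libraries and these genes passed the test in both, so this agreement was close to fixed in advance. For genes that lost their call, direction was followed only among the genes named by the rule. DESeq2 called 733 genes higher and 691 lower, including 697 of the 722. Without the filter, 360 genes were lower by at least 1 on the log2 scale. Fitting the 12 libraries alone gave 185 higher and 170 lower (160 and 136 by at least 1, and 13 genes lower in T24 and higher in 5637). Without the libraries of CLS-439, another line in the common fit, the counts were 234 and 222. A replicate block shared by both lines was fitted on the 12 libraries, so its base is the fit of those 12 without a block, which gave 34 and 13 genes in the opposite patterns and 4819 and 4966 calls in T24 and 5637. With the shared block the difference was called for 844 and 868 genes (372 and 410 by at least 1). The response of each line in that fit is its response at replicate number 1, since the replicate terms are set relative to that number. Its opposite patterns held 18 and 5 genes, and 3332 and 3120 genes were called in T24 and 5637. These response counts are therefore not comparable with those of the fit without a block. A block within each line, fitted on all 24 libraries, gave 451 and 472, and the calls it ended or moved by over 1.5 times are given beside the genes and lists described. At an adjusted p under 0.01 the counts were 148 and 119 (130 and 98 by at least 1), with 15 and 3 opposite genes and 3707 and 3878 responses called. Of the genes named by the rule, 32 lost their call with the 12 libraries alone, 20 without CLS-439, 7 without the filter, and 2 each with DESeq2 or RLE scaling. Leaving out 1 replicate number in all groups left 2 libraries per group. Of the 118 named genes called, 106 lost their call without replicate 4, 61 without replicate 3 and 16 without replicate 1.

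Leaving out 1 library, or 1 replicate number in all groups, gave 15 to 579 genes higher and 6 to 559 lower, 15 to 374 and 6 to 356 by at least 1, 3 to 61 and 0 to 57 in the opposite patterns, and 1573 to 7223 calls in T24 and 1892 to 7616 in 5637. The lowest counts came without replicate 4, which left 2 libraries per group, the number 1 library among them. Of its 21 calls, 21 were among the 722.

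Among the genes named by the rule, directions that reversed belonged to genes not called. MDM2 was -0.0022 without treated 5637 replicate 1, -0.0492 without treated T24 replicate 3 and -0.2036 without replicate 3 (range -0.2036 to 0.2521). CXCL8 was -0.2923 and -0.0599 without treated 5637 replicate 3 or 4, -0.1228 without untreated 5637 replicate 1, -0.2011 without treated T24 replicate 1, -0.0795 without untreated T24 replicate 1 and -0.1 without replicate 3 (range -0.2923 to 0.6287). CCNB1 was 0.0462 without treated T24 replicate 1 (range -0.2644 to 0.0462). The cause was not tested. With 3 libraries per group, differences in genes at low counts are limited by depth.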
